A study of Mus musculus with 24 samples.

Results

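Astrocytes, the glial cells that take up transmitter, buffer potassium and feed neurons, were compared with cortical neurons by cTag-PAPERCLIP, which recovers mRNA 3' ends crosslinked to a GFP-tagged poly(A)-binding protein that a Cre recombinase switches on in chosen cells. The comparison used 6 of the 24 libraries of the series: 2 from cortex of Gfap-Cre; Ctag-PABP mice (tagged astrocytes), 2 from cortex of Camk2a-Cre; Ctag-PABP mice (tagged excitatory neurons) and 2 from cortex of Gad2-Cre; Ctag-PABP mice (tagged inhibitory neurons). Libraries were chosen by driver line and tissue alone, and every gene listed entered, 23871 by symbol, of which 9539 passed a filter on low counts and were tested. Each value for a gene is the Gfap pair against the mean, on the log2 scale, of the Camk2a and Gad2 pairs, so a gene of 1 neuronal class is set against the middle of a high and a low level. All 3 groups carry the same tag allele and differ in the driver. The labels name no age, sex or pooling of animals, and no treatment. They do not say that replicates were separate animals either, so the p-values measure only the spread between these libraries, which may be technical. The Cre lines mark every cell with present or past driver activity, and Gfap promoters are known to be active also in neural stem cells, from which some other cells descend.

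In the cortex, astrocytes clear glutamate and GABA from synapses, turn glutamate into glutamine and return it to neurons, store glycogen, make cholesterol and apolipoproteins, and are coupled to each other by gap junctions. Neurons carry the machinery of vesicle release and the receptors that read it. Oligodendrocytes, which wrap axons in myelin, and their precursors are a separate glial lineage, and their mRNA in an astrocyte sample is therefore read here for each library apart.

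The driver gene lies on chromosome 11 of GRCm38.p6 (chr11:102887336-102897200, minus strand). For orientation at the locus that names the astrocyte line, the 250 bases before its RefSeq start (chr11:102897201-102897450, minus strand, written 5′ to 3′ with no part marked) read as follows, and which promoter fragment drives the Cre is not given in the sources used here.
Gfap upstream region: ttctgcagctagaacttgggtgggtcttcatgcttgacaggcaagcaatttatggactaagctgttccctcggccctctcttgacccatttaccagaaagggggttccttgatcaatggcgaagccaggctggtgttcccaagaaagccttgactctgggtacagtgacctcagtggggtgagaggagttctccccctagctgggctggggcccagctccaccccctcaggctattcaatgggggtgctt

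The Gfap libraries held 800886 and 1749778 counts, the Gad2 libraries 630475 and 950497, and the Camk2a libraries 2005627 and 1833177. Levels are given as CPM of each library's TMM-scaled total over the tested genes (normalised CPM, a gene's counts relative to that total), replicate 1 first. The Gfap pair had the largest chi-square per degree of freedom, 4.54 against 2.70 for Gad2 and 2.92 for Camk2a, a value that also grows with depth. The correlation of replicates on the log2 scale was 0.948 for Gfap, 0.956 for Gad2 and 0.979 for Camk2a. Gfap replicate 2 held far more myelin mRNA than replicate 1, and replicate 1 more neuronal mRNA. Both are given gene by gene further on, and each gene group below is given without either library where its count moved by over 1.5 times. A fit without 1 library leaves its group with 1 sample, which is then assumed to vary like the other groups. The X-inactivation transcript Xist had no count in both Gfap libraries and 17.7 to 45.8 normalised CPM in the 4 neuronal ones, whereas the Y-linked helicase Ddx3y read 163 and 177 in Gfap and 59.3 to 104 in neuronal libraries. Y-linked mRNA was thus present in all 6 libraries, and a difference in the sex of the mice cannot be told apart from the cell type for X- and Y-linked genes. Few counts do not show that a gene is silent here. Gapdh, Pgk1 and Eef1a1, used by every cell, had 2, 0 and 6 counts in all 6 libraries together, and 27 of the 569 genes in the lists used here had none.

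The driver genes followed the labels. Gfap, the astrocyte intermediate filament, read 604 and 660.0 normalised CPM in the Gfap libraries, 1.43 and 1.99 in Camk2a and 3.16 and 0 in Gad2 libraries (632 ± 39.4 against 1.71 ± 0.398 and 1.58 ± 2.23, mean ± SD, n = 2 each). It was higher in the Gfap libraries (log2 difference 8.69, SE 0.27, adjusted p = 1.35e-13) by edgeR's quasi-likelihood test with Benjamini-Hochberg adjustment, which gives every adjusted p below. Camk2a, the kinase of excitatory neurons, read 396 and 155 in Gfap, 2036 and 2138 in Camk2a and 532 and 271 in Gad2 libraries. Gad2, the enzyme of GABA synthesis, read 5.84 and 14.5, 11.0 and 18.9 and 819 and 935 in the same order. Each driver gene was thus highest in its own line, and the Gfap pair overlapped the other neuronal class for Camk2a and for Gad2. Pabpc1, which encodes a cytoplasmic poly(A)-binding protein, had 15 counts in all 6 libraries and was not tested. Gfap differed by 10.62 without Gad2 replicate 1 and 8.02 without Gad2 replicate 2.

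Other markers placed the Gfap libraries apart from both neuronal groups. The water channel Aqp4 read 1343 and 1707 against 3.34 to 9.47 (log2 difference 8.12, SE 0.22) and the glutamate transporter Slc1a3 6341 and 4970.4 against 15.7 to 25.5 (log2 difference 8.07, SE 0.22). Snap25, a neuronal fusion protein, read 1156 and 539 against 6597 to 9396 (log2 difference -3.25, SE 0.29). Gfap libraries lay above every neuronal library for the astrocyte markers and below every one for Snap25, yet Snap25 was far from absent. Of the vessel markers, Cldn5, Flt1, Pecam1 and Rgs5 were near 0, at 1, 1, 0 and 2 counts over the Gfap pair, whereas the mural marker Pdgfrb read 159 and 222 against 1.58 to 2.95. The list of vessel genes took 0.0145% and 0.0224% of counts in Gfap libraries and 0.00143% to 0.00327% in neuronal ones. Pdgfrb made up most of the list in Gfap libraries, at 159 and 222 of a summed 169 and 248 normalised CPM. In neuronal libraries it read 1.58 to 2.95 of a summed 14.2 to 31.0. Of the list's 2 tested genes, Pdgfrb was higher and the other lower (log2 differences 6.42 and -2.485). The microglial receptor Cx3cr1 and the progenitor filament Nes were near 0 too, at 0 and 1 counts over the Gfap pair. Snap25 differed by -3.95 without Gfap replicate 1.

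**Figure D1:**
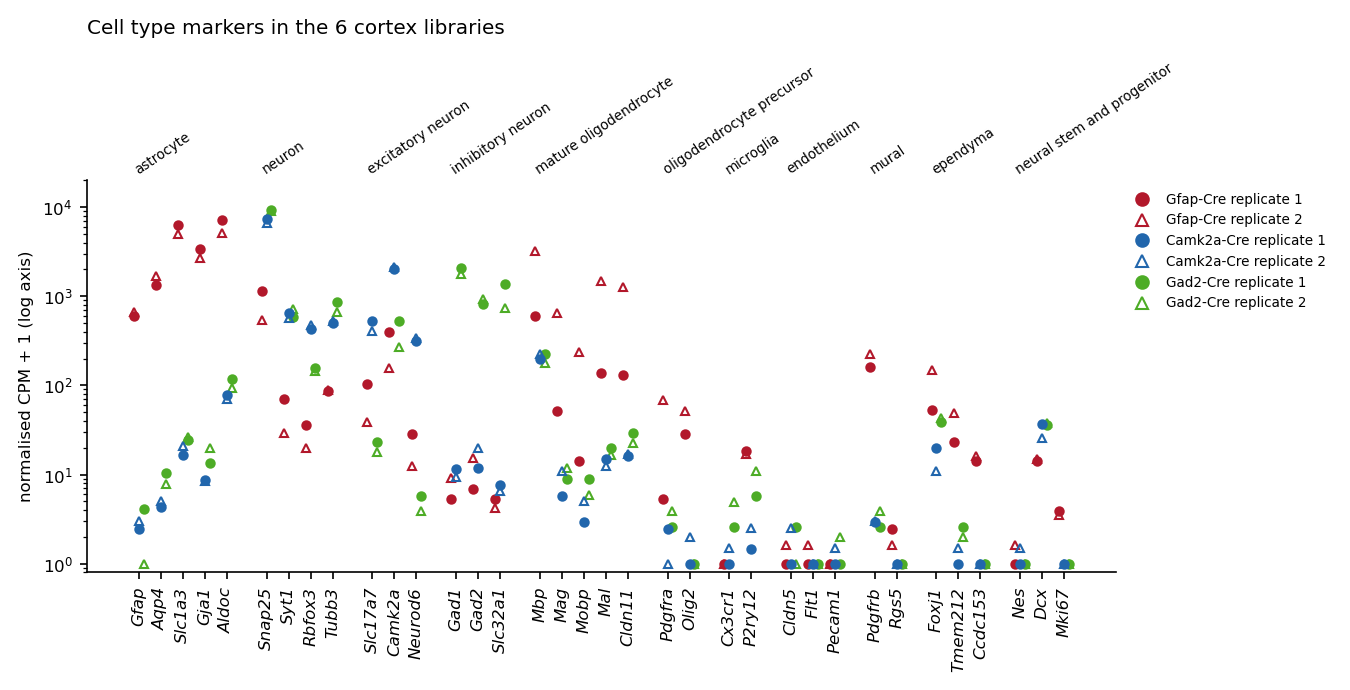
Level of each cell type marker in the 6 libraries, as normalised CPM plus 1 on a log axis, with a point for each library (circles replicate 1, triangles replicate 2). Astrocyte markers are high in both Gfap libraries (red), markers of all neurons are lower there than in the neuronal libraries but not at 0, and the myelin markers separate the 2 Gfap libraries.

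Astrocytes and neurons differed in most genes tested. At an adjusted p of 0.05, 3288 of 9539 genes (34.5%) were higher and 2983 (31.3%) lower in the Gfap libraries, 6271 in all (65.7%), and the median over all tested genes was 0.03. These shares are given as background beside the counts in a gene list. The lists and their members were chosen with earlier results of these data known. Counts over a list therefore describe that list and are no independent support for a difference. Counts over gene lists take every gene past the test, with or without overlap between groups. For genes named below as higher or lower, both Gfap libraries lay on the same side of all 4 neuronal libraries unless an overlap is stated. This held for 3009 of the higher genes (31.5%) and 2656 of the lower ones (27.8%). An absolute log2 difference of at least 3 was reached by 977 of the higher and 630 of the lower genes. With library totals as the only scaling, 2771 were higher and 3592 lower and the median moved to -0.22, so small differences depend on the scaling. A gene that is abundant in a single cell type passes the filter through that type, so members of a cell type's list that were tested are those that had counts somewhere, not all members. In bulk libraries, fewer cells of a type and less RNA per cell cannot be told apart.

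Where groups did not overlap and the average level was 3 or more on the log2 CPM scale, the largest fitted differences upward included genes that neuronal libraries barely held. Scrg1, a small secreted protein, read 194 and 203 normalised CPM in Gfap libraries and had 1 count in the 4 neuronal libraries together. Timp4, an inhibitor of matrix metalloproteinases, read 161 and 142, the scaffold protein Slc9a3r1 136 and 159 and the homeobox factor Msx1 99.3 and 85.3, each also with 1 neuronal count. Tlcd1 read 253 and 267, Nwd1 111 and 136 and the calcium-binding S100a16 126 and 203, against at most 1.43, 0.498 and 0.996 in a neuronal library. Kcne1l, a potassium channel subunit, Gareml, and the Hedgehog factor Gli3 had no neuronal count and were at least 118-, 111- and 93.9-fold higher, against a floor of 3 counts over the 4 neuronal libraries. Itih3, a hyaluronan-binding protein, and Lrp4, a receptor of the LDL receptor family, had no count in the Gad2 libraries.

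The largest differences downward, Xist among them, were of genes with no count in either Gfap library. Their bounds set the log2-scale mean of the Camk2a and Gad2 levels against a floor of 3 counts over the Gfap pair. Slc27a2, an acyl-CoA synthetase, read 9.53 and 15.4 in Camk2a and 80.5 and 89.4 in Gad2 libraries and was at least 24.7-fold lower in Gfap libraries. Lhx6, a homeobox factor of inhibitory neurons, read 183 and 164 in Gad2 but 1.91 and 0.996 in Camk2a libraries, so its difference came from the Gad2 pair. The cadherin Cdh9, the receptor Gpr83, Pld5 and Rerg were at least 16.7-, 12.2-, 11.7- and 9.82-fold lower. Galnt14, Celf6, the cation channel Trpc6, the serotonin receptor Htr7 and Ccdc120 had bounds between 7.79 and 10.4. These bounds cover counting error only.

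**Figure D2:**
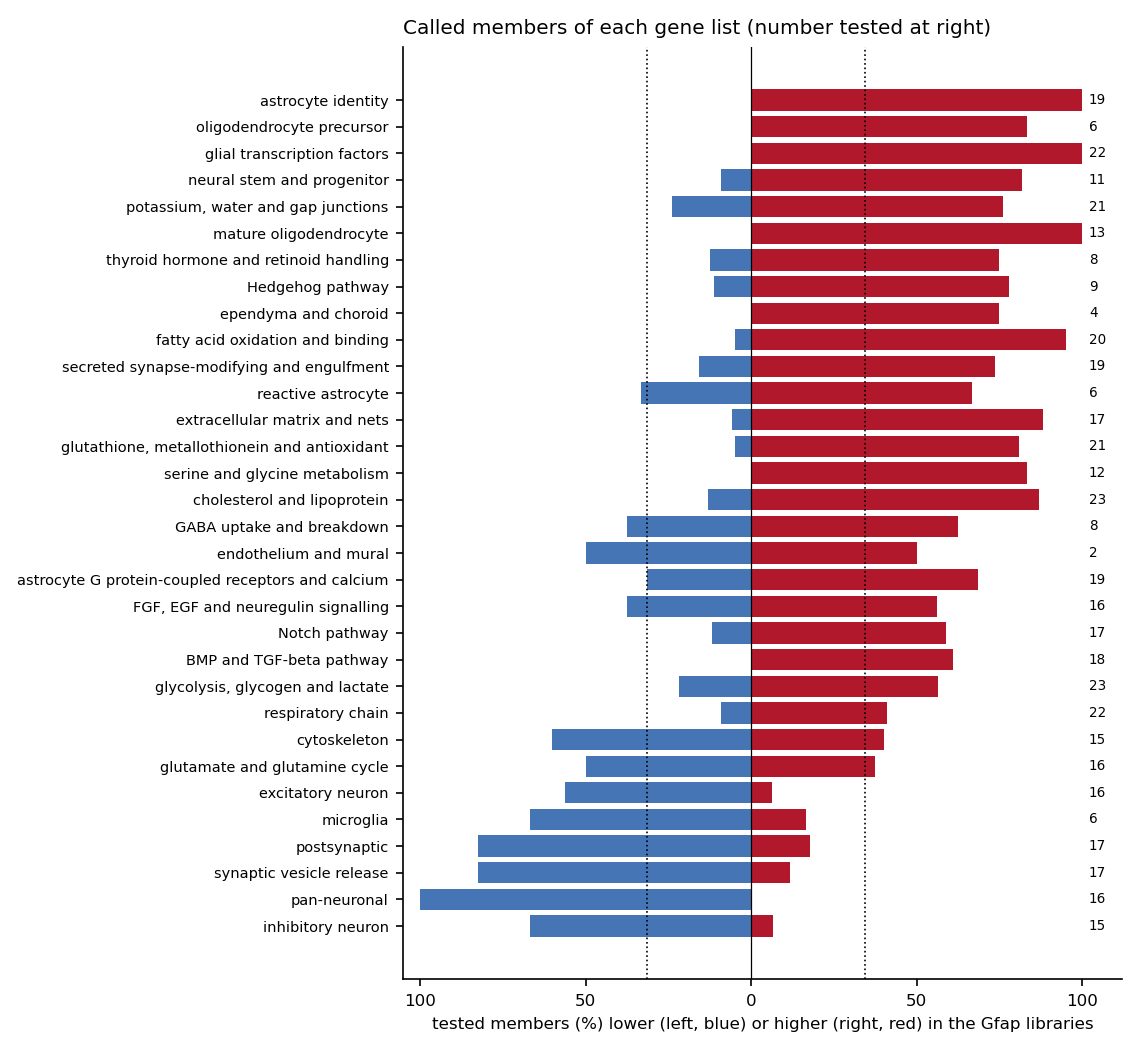
Share of the tested members of each gene list that were higher (red, right) or lower (blue, left) in the Gfap libraries at an adjusted p of 0.05, ordered by the list's median difference. Dotted lines mark the shares over all tested genes, 34.5% higher and 31.3% lower, and the number at the right is that of members tested.

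Of 20 genes of astrocyte identity, 19 were tested and 19 were higher, with a median difference of 7.46 against 0.03 for all genes. The list's summed level was 62398 and 49511 normalised CPM in Gfap libraries and 598 to 790 in neuronal ones, so neuronal libraries held 1.07% to 1.41% of the Gfap level. The glycolytic enzyme Aldoc read 7199 and 5088 against 69.7 to 118, the main glutamate transporter Slc1a2 14059.9 and 11441 against 488 and 481 in Camk2a and 103 and 148 in Gad2 libraries. Gja1, the main astrocyte connexin, read 3376 and 2711 against 7.47 to 18.7, and the growth factor receptor Fgfr3 952 and 974 against 0.983 to 6.97. Both Gfap libraries lay above all neuronal ones for the 19 genes. The smallest difference was that of the bicarbonate transporter Slc4a4 (log2 difference 5.03, SE 0.20). Acsbg1 had too few counts to be tested.

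Transcription factors of the glial lineage were higher for 22 of 22 tested, with a median of 5.60. Sox9, a factor that sets glial fate, read 1089 and 881 against 5.90 to 20.5 (log2 difference 6.39, SE 0.20), and the homeobox factors Lhx2 and Emx2 read 1001 and 1071 and 942 and 768. The latter pair were not at the same level in both neuronal classes, with Lhx2 at 75.3 and 86.7 in Camk2a and 7.89 and 4.91 in Gad2 libraries and Emx2 at 31.0 and 33.9 and 1.58 and 2.95. Dbx2 read 396 and 377 against 0.953 to 1.58 (log2 difference 8.20, SE 0.25) and Id3, an inhibitor of basic helix-loop-helix factors, 333 and 464 against 1.49 to 8.84. The smallest difference in the list was that of Nfix, a nuclear factor I protein (log2 difference 0.81, SE 0.17, adjusted p = 0.000466), where the groups overlapped, at 762 and 692 in Gfap, 735 and 619.6 in Camk2a and 300.0 and 212 in Gad2 libraries. Its relative Nfia differed by 4.61. Sox2, a stem cell and astrocyte factor, read 974 and 1019 in Gfap, only 6.67 and 4.98 in Camk2a but 213 and 267 in Gad2 libraries. Nfix (0.10, adjusted p = 0.671) did not pass against the Camk2a pair alone.

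In the glutamate and glutamine cycle, 6 of 16 tested genes were higher and 8 lower, against 34.5% and 31.3% of all tested genes. Of the higher ones, Glul, glutamine synthetase, read 8777 and 6564 against 33.4 to 78.9 (log2 difference 7.11, SE 0.24). Slc38a3, a glutamine exporter of astrocytes, read 172 and 214 against 0 to 1.58, Slc7a11, the cystine and glutamate exchanger, 620.4 and 654 against 3.93 to 5.48, and the dehydrogenase Glud1 differed by 4.25. Got1, the cytosolic aspartate aminotransferase, and Slc25a22, a mitochondrial glutamate carrier, were lower (log2 differences -3.38 and -2.93), as was the neuronal transporter Slc1a1 (-2.84). Slc38a1 and Slc38a2, glutamine carriers, were lower too (-1.14 and -1.54). The vesicular transporter Slc17a7 did not pass (log2 difference -0.56, SE 0.33, adjusted p = 0.148). It read 522 and 407 in Camk2a but 22.1 and 16.7 in Gad2 libraries, and the Gfap pair lay between them at 102 and 37.9. Slc1a1 differed by -3.48 without Gfap replicate 2. Slc38a2 differed by -2.36 without Gfap replicate 2. Slc17a7 passed without Gfap replicate 1 (adjusted p = 0.000168). Slc38a1 (-0.38, adjusted p = 0.0882) did not pass against the Camk2a pair alone.

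In GABA handling, 5 of 8 genes were higher and 3 lower. The 3 lower ones were those of GABA synthesis and vesicle loading, Gad1, Gad2 and Slc32a1, and these calls came from the Gad2 libraries. Against the Camk2a pair alone none of the 3 passed, with log2 differences of -0.44 for Gad1 (adjusted p = 0.367), -0.35 for Gad2 (adjusted p = 0.442) and -0.77 for Slc32a1 (adjusted p = 0.327). Slc6a11, an astrocyte GABA transporter, read 86.1 and 111 against 1.49 to 1.97 (log2 difference 5.76, SE 0.31). Abat, which breaks GABA down, read 1399.9 and 1348 against 72.9 and 73.7 in Camk2a and 810.0 and 601 in Gad2 libraries, above both. Maob, monoamine oxidase B, differed by 5.83 (SE 0.26).

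Serine and glycine metabolism was higher for 10 of 12 genes, with none lower and a median of 2.64. Psat1, an enzyme of serine synthesis, read 561 and 738 against 32.4 to 83.7 (log2 difference 3.58, SE 0.18), and Psph, which completes that pathway, 73.0 and 78.3 against 0.498 to 6.88. Gcsh, of the glycine cleavage system, differed by 3.42 (SE 0.26), and its partner Gldc read 26.3 and 30.9 with 1 count in the neuronal libraries. Slc7a10, a carrier of small neutral amino acids, read 194 and 212 against 0 to 1.97. Srr, serine racemase, did not pass (log2 difference 0.45, SE 0.22, adjusted p = 0.0755), with 74.4 and 73.3 in Gfap, 76.3 and 105 in Camk2a and 41.1 and 25.5 in Gad2 libraries. Phgdh, the first enzyme of serine synthesis, had too few counts to be tested. Srr passed without Camk2a replicate 2 (adjusted p = 0.0415).

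Potassium, water and gap junction genes were higher for 16 of 21 and lower for 5. Kcnj10, the main inward rectifier of astrocytes, read 1198 and 1086 against 3.16 to 3.93 (log2 difference 8.30, SE 0.21), and its partner subunit Kcnj16 366 and 397 against 0.477 to 3.16. Mlc1 and Hepacam, membrane proteins that act together at astrocyte junctions, differed by 7.67 and 7.39. The astrocyte connexin Gjb6 read 276 and 297 and Gjb2 40.9 and 61.9, with at most 1.58 and 0.996 in a neuronal library. The lower genes included the chloride exporter Slc12a5 (-3.43), the neuronal connexin Gjd2 and the sodium pump subunit Atp1b1 (-2.02). Gjd2 was without counts in both Gfap libraries and overlapped the Camk2a pair, with 0 and 1.49 in Camk2a and 30.0 and 67.8 in Gad2 libraries. It did not pass without Gfap replicate 2 or Camk2a replicate 2 (adjusted p = 0.0762 to 1.0). Gjd2 (-3.14, adjusted p = 0.266) did not pass against the Camk2a pair alone. Gjd2 missed the threshold in 1 of 9 other analyses, with no library left out.

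Tested genes of sugar metabolism went in both directions. Of 29 genes of glycolysis, glycogen and lactate, 23 were tested, and Hk2, Gapdh, Pgk1 and Eno1 were among those not tested. Of the 23, 13 were higher, 5 lower and 5 not called, with a median of 0.73. The list's summed level in Gfap libraries was 288% and 221% of the neuronal mean. Aldoc alone read 7199 and 5088 of a summed 13180 and 10135 normalised CPM there. Genes of glycogen were on the higher side: the phosphorylases Pygb (558 and 509.7 against 18.1 to 39.5; log2 difference 4.25, SE 0.16) and Pygm (20.4 and 32.8, with 2 counts in neuronal libraries), glycogen synthase Gys1 (log2 difference 2.41, SE 0.39) and the glycogen-targeting phosphatase subunit Ppp1r3c (187 and 167 against 0 to 2.95). Within glycolysis, Aldoc was higher by 6.13 while the other aldolase Aldoa did not pass (log2 difference -0.24, SE 0.16, adjusted p = 0.188), and the neuronal enolase Eno2 was lower (-3.68). Pfkm, Pfkl and Ldhb were higher (1.01, 0.73 and 1.52), and Pfkp, Tpi1 and Pkm lower (-0.38, -0.53 and -0.51), with overlapping groups for Pfkl and Pfkp. The other 4 tested genes did not pass. The lower count was 2 without Gfap replicate 2, 3 without Camk2a replicate 1 or by DESeq2, and 8 against the Camk2a pair alone. For glucose uptake, Slc2a1 read 56.9 and 66.3 against 5.90 to 11.9 and the neuronal transporter Slc2a3 45.3 and 17.7 against 216 to 266. Slc16a1, a lactate carrier, was higher by 1.58 (SE 0.23). Pfkp did not pass in 4 of the 6 fits without 1 library (adjusted p = 0.0749 to 0.340). Tpi1 did not pass without Gfap replicate 2 (adjusted p = 0.243). Pkm did not pass without Gfap replicate 2 or Camk2a replicate 1 (adjusted p = 0.0917 to 0.329). Tpi1 (-0.44, adjusted p = 0.0727) did not pass against the Gad2 pair alone. Pfkp missed the threshold in 3 of 9 other analyses and Pkm in 3 of 9, with no library left out.

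Fatty acid oxidation was higher nearly throughout, with 19 of 20 genes up and a median of 3.92. Cpt1a, which admits long-chain fatty acids to mitochondria, read 97.8 and 108 against 0 to 1.97. The dehydrogenases Acadl and Hadh differed by 5.46 (SE 0.18) and 5.93 (SE 0.21), the thiolase Acaa2 by 6.56 and the trifunctional protein subunits Hadha and Hadhb by 3.35 and 4.47. Acot11, a thioesterase, read 359 and 405 against 2.38 to 6.88. The exception was a binding protein. Fabp3 read 26.3 and 18.9 against 255 to 298 (log2 difference -3.66, SE 0.22), whereas its relatives Fabp7 and Fabp5 read 578 and 835 and 87.6 and 96.6 against 0.983 to 5.98 and 2.95 to 11.5.

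By comparison, the respiratory chain, the mitochondrial machinery of oxidative phosphorylation, moved little. Of 22 genes 9 were higher, 2 lower and 11 not called, with a median of 0.31, and with library totals as the only scaling 5 were lower. Against the Gad2 pair alone 4 were higher and 4 lower, and against the Camk2a pair alone 12 were higher and none lower. Uqcrfs1 and Atp5c1 had the largest differences upward (2.12 and 1.18), and Ndufa4 and Cox6a1 were lower (-0.70 and -0.49), Ndufa4 with overlapping groups. Ndufa4 did not pass without Gfap replicate 2 (adjusted p = 0.0827). Cox6a1 did not pass without Gfap replicate 2 or Camk2a replicate 1 (adjusted p = 0.0506 to 0.103). Ndufa4 (-0.09, adjusted p = 0.758) and Cox6a1 (-0.26, adjusted p = 0.259) did not pass against the Camk2a pair alone. Ndufa4 missed the threshold in 1 of 9 other analyses and Cox6a1 in 1 of 9, with no library left out.

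Cholesterol synthesis and lipoprotein genes were higher for 20 of 23, with a median of 2.42. Hmgcs1, at the entry to the sterol pathway, read 847 and 929.7 against 60.0 to 84.4 (log2 difference 3.56, SE 0.15), and Cyp51, Msmo1 and Sqle differed by 3.39, 3.31 and 2.42. The regulator Srebf1 differed by 4.09 and its relative Srebf2 by 2.14. Apolipoprotein E (Apoe) read 298 and 262 against 0.477 to 1.58 (log2 difference 8.32, SE 0.27) and clusterin (Clu) 2527 and 1868 against 45.2 to 52.9. The cholesterol exporter Abca1 was higher (3.66), whereas the exporters Abcg1 and Abcg4 were lower (-2.76 and -1.94), as was the neuronal cholesterol hydroxylase Cyp46a1 (-0.73). Abcg1 read 2.92 and 17.7 in Gfap and 64.8 to 136 in neuronal libraries. Abcg1 differed by -4.83 without Gfap replicate 2. Cyp46a1 did not pass without Gfap replicate 2 (adjusted p = 0.0652). Cyp46a1 (-0.43, adjusted p = 0.0814) did not pass against the Gad2 pair alone.

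Genes of glutathione, metallothioneins and antioxidant enzymes were higher for 17 of 21, with 1 lower and a median of 2.98. The metallothioneins Mt1, Mt2 and Mt3, which bind zinc and copper, differed by 6.29, 7.50 and 4.67. Mt1 read 15729.9 and 9196 against 106 to 218, so the Gfap libraries lay well apart from the others and differed from each other. Gstm1, a glutathione transferase, read 2331 and 1517 against 5.72 to 14.2, and the peroxidase Prdx6 3426 and 2558 against 54.0 to 58.6. Genes of the transferase family resemble each other in sequence, and how reads that fit several were counted is not given in the sources used here. Keap1, an inhibitor of the antioxidant factor Nfe2l2, was lower (log2 difference -0.42, SE 0.16, adjusted p = 0.0331) but lay above the threshold in 9 of 17 alternative analyses, 4 of them fits without 1 library (adjusted p from 0.0537 to 0.156). The other 3 genes did not pass.

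Signalling genes went in both directions. In the Notch pathway, 10 of 17 genes were higher and 2 lower. The receptors Notch1 and Notch2 read 249.6 and 259.6 and 123 and 125 against at most 4.74 and 4.74 in neuronal libraries, and the target Hes5 93.4 and 113 against 2.95 to 6.67. Of the ligands, Jag1 was higher (21.9 and 31.6 against 0 to 1.97) and Jag2 lower (0 and 1.26 against 7.47 to 30.0). Numbl, an antagonist of Notch in neural progenitors, was lower (13.1 and 30.9 against 32.4 to 119.6). In the Hedgehog pathway, 7 of 9 genes were higher and 1 lower. The lower one was the ligand Shh, at 4.38 and 1.26 in Gfap, 24.8 and 22.4 in Camk2a and 123 and 119.9 in Gad2 libraries. Gli1, a factor that is also a target of the pathway, had no neuronal count and was at least 18.6-fold higher, and the co-receptor Gas1 and the ligand-binding Hhip read 163 and 158 and 14.6 and 36.6 against 0.996 to 11.1 and 0.953 to 1.58. With libraries thinned to the shallowest total, 4 of the 9 Hedgehog genes were tested and 3 were higher. Numbl (-0.75, adjusted p = 0.0886) did not pass against the Gad2 pair alone.

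Receptors of BMP and FGF were higher as well. Of 18 BMP and TGF-beta genes 11 were higher and none lower, while 2 were lower against either neuronal pair alone. Bmpr1a read 378 and 464 against 37.9 to 66.8, and Bmpr1b 206 and 207 against 6.67 and 1.99 in Camk2a libraries and no count in Gad2 libraries. The ligand Tgfb2 differed by 4.51, the target Id1 by 5.66 and the transducer Smad5 by 3.00. Tgfbr2 did not pass (-0.42, adjusted p = 0.244), at 21.9 and 15.2 in Gfap, 6.20 and 3.98 in Camk2a and 112 and 102 in Gad2 libraries. In the list of FGF, EGF and neuregulin genes, 9 of 16 were higher and 6 lower. The receptors Fgfr1 and Fgfr2 and the ligand Hbegf were higher (4.04, 5.50 and 4.31). The receptor Egfr read 111 and 107 against 0 to 20.6 and the ligand Fgf1 359 and 360.0 against 0.996 to 25.5. The 6 lower genes were the ligand Fgf9 (4.38 and 1.26 against 31.5 to 101), the intracellular FGF homologues Fgf12, Fgf13 and Fgf14, and the neuregulins Nrg2 and Nrg3, of which Nrg3 read 16.1 and 6.32 against 47.2 to 124. Nrg2 did not pass without Gfap replicate 1, Gfap replicate 2 or Camk2a replicate 1 (adjusted p = 0.0624 to 0.0833). Nrg2 (-1.34, adjusted p = 0.0648) did not pass against the Camk2a pair alone. Nrg2 missed the threshold in 1 of 7 other analyses, with no library left out.

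Thyroid hormone and retinoid genes were higher for 6 of 8. Dio2, which turns the prohormone into active hormone, read 1847 and 1936 against 4.29 to 16.7 (log2 difference 7.73, SE 0.20), and the hormone transporter Slco1c1 234 and 453 against 0.498 to 4.91. The hormone receptor Thrb was the lower gene (log2 difference -0.66, SE 0.24, adjusted p = 0.0242). Aldh1a1, which makes retinoic acid, read 242 and 367 against 0 to 7.47. Thrb did not pass without Gfap replicate 1 or Gad2 replicate 2 or Camk2a replicate 1 (adjusted p = 0.0501 to 0.0970). Thrb (-0.52, adjusted p = 0.135) did not pass against the Gad2 pair alone. Thrb missed the threshold in 1 of 9 other analyses, with no library left out.

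Secreted proteins that act on synapses and genes of engulfment were higher for 14 of 19 and lower for 3. Sparc, an extracellular matrix protein, read 889 and 1002 against 2.86 to 12.6 (log2 difference 6.83, SE 0.23). Its relative Sparcl1 read 24275 and 14665 in Gfap, 1688 and 1488 in Camk2a and 5436 and 4389 in Gad2 libraries, above both but with a smaller difference (log2 difference 2.80, SE 0.22). Of the glypicans, heparan sulphate proteoglycans of the cell surface, Gpc4 and Gpc6 differed by 1.77 and 3.84, and Gpc5 read 241 and 231 against 0 to 1.97. Chrdl1, a BMP antagonist, differed by 8.13. Among engulfment genes, the receptors Megf10 and Axl read 191 and 252 and 109 and 143 against at most 13.8 and 0.983, and the bridging protein Mfge8 and the cytokine Il33 differed by 8.08 and 6.84. The 3 lower genes were the growth factor Bdnf (-1.24), the postsynaptic adhesion protein Nlgn2 (-1.34) and the thrombospondin Thbs2, at 2.92 and 5.68 in Gfap, 5.72 and 5.98 in Camk2a and 36.3 and 44.2 in Gad2 libraries. Bdnf read 38.0 and 24.0 in Gfap, 229 and 239 in Camk2a and 26.8 and 15.7 in Gad2 libraries, so Gfap and Gad2 overlapped. Thbs2 (-0.28, adjusted p = 0.659) did not pass against the Camk2a pair alone.

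In the extracellular matrix list 15 of 17 genes were higher and 1 lower. The proteoglycan Bcan read 3594 and 2793 against 32.9 to 204, its relative Ncan 772 and 1073 in Gfap libraries and 137 ± 6.33 in Camk2a and 38.8 ± 3.51 in Gad2 libraries (mean ± SD, n = 2 each), and Ptprz1, a receptor phosphatase with proteoglycan forms, differed by 6.28. The metalloproteinase inhibitor Timp3 and the syndecan Sdc4 differed by 6.08 and 7.56. Hapln4, a link protein of perineuronal nets, was the lower gene (log2 difference -4.98, SE 0.35), at 1.46 and 3.79 against 73.2 to 133, and Acan, a proteoglycan of such nets, did not pass (log2 difference -2.02, SE 1.04, adjusted p = 0.099), with 2 counts over the Gfap pair and 15.8 and 20.6 in Gad2 libraries. Hapln4 differed by -5.98 without Gfap replicate 2.

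Among G protein-coupled receptors and calcium genes ascribed to astrocytes, 13 of 19 were higher and 6 lower. The endothelin receptor Ednrb read 1074 and 937 against 3.81 to 7.86 (log2 difference 7.41, SE 0.20), the sphingosine phosphate receptor S1pr1 3443 and 2923 against 7.15 to 12.6, and Gpr37l1 3286 and 2782 against 8.97 to 31.6. The metabotropic glutamate receptors divided, with Grm3 higher (4.78) and Grm5 lower (-2.82). The adrenergic receptors Adrb1 and Adra1b were lower (-2.24 and -1.60) and Adra2a higher (0.86, with 1 Gfap library inside the neuronal range). The cannabinoid receptor Cnr1 was lower (-2.84), and the GABA-B subunit Gabbr1 higher (1.51). Adra2a did not pass without Gfap replicate 2 or Gad2 replicate 2 (adjusted p = 0.0709 to 0.904). Adra2a (0.57, adjusted p = 0.103) did not pass against the Camk2a pair alone. Adra2a missed the threshold in 2 of 9 other analyses, with no library left out.

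Genes known from reactive astrocytes were mostly too low to test, 6 of 20 passing the filter. The filament Vim read 496 and 605 against 0 to 5.90, the adhesion receptor Cd44 21.9 and 36.0 against 1.91 to 3.93, and Tm4sf1 11.7 and 14.5 against 0 to 1.58. Complement C4b had no neuronal count and was at least 62.6-fold higher, and Fkbp5 was lower (-2.41), as was S1pr3 in the fit of all 6 libraries (log2 difference -1.01, SE 0.42, adjusted p = 0.0429). Of 11 tested genes of stem and progenitor cells 9 were higher and 1, Dcx of young neurons, lower (-1.27). Hopx, Fabp7 and the homeobox factor Pax6 are shared with astrocytes and read 2156 and 1834, 578 and 835 and 56.9 and 47.4. Top2a, of dividing cells, read 10.2 and 24.0 with 1 neuronal count, while the proliferation marker Mki67 had 6 counts over the Gfap pair and none in neuronal libraries. S1pr3 did not pass in 6 of the 6 fits without 1 library (adjusted p = 0.0517 to 0.203). S1pr3 (-0.64, adjusted p = 0.302) did not pass against the Gad2 pair alone. S1pr3 missed the threshold in 3 of 8 other analyses, with no library left out.

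Some related genes took opposite directions. Of 29 pairs of relatives or of partner enzymes, chosen with earlier results of these data known, 13 had the first member higher and the second lower, 6 had both higher, 1 had both lower, and in the others a member was not called or not tested. The choice of pairs bears on these counts, which say nothing of relatives in general. The beta subunits of the sodium pump divided, with Atp1b2 at 3.96 and Atp1b1 at -2.02. The GABA-A receptor subunit Gabrg1 read 536 and 468 against 11.0 to 19.7. The inositol trisphosphate receptor Itpr1 was lower (-3.26), while Itpr2 read 43.8 and 78.3 with 1 neuronal count. For membrane fusion, Snap23 and Vamp3, of general secretion, were higher (4.02 and 3.98), and Snap25 and Vamp2, of synaptic vesicles, lower (-3.25 and -1.43). For chloride transport, the importer Slc12a2 was higher (log2 difference 2.13, SE 0.49) but read 7.30 and 56.2 in the Gfap libraries, so that replicate 1 lay within the neuronal range of 4.91 to 14.2. Pairs that were higher together included Fgfr3 with Fgfr1, Sox9 with Sox11, Pygm with Pygb, Ldhb with Ldha, and Pfkl with Pfkm, where Ldha and Pfkl had overlapping groups. Ldha did not pass in 5 of the 6 fits without 1 library (adjusted p = 0.0552 to 0.321). Itpr1 differed by -3.88 without Gfap replicate 1 and -2.62 without Gfap replicate 2. Slc12a2 did not pass without Gfap replicate 2 (adjusted p = 0.855, log2 difference -0.19). Ldha missed the threshold in 5 of 9 other analyses, with no library left out.

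**Figure D3:**
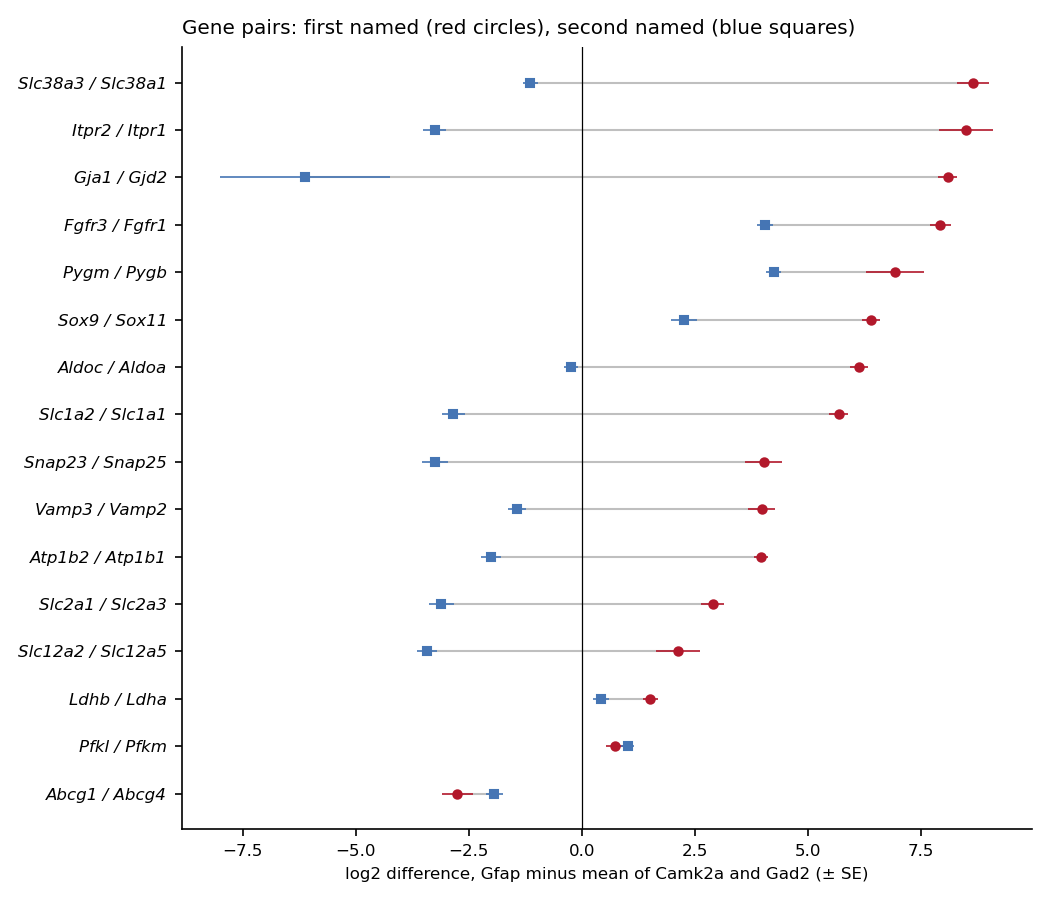
Difference of each member of 16 gene pairs in which both genes were tested and are named in the text, Gfap libraries against the mean of Camk2a and Gad2 libraries on the log2 scale, with SE. Red circles are the first named gene and blue squares the second, and in 9 of these pairs they lie on opposite sides of 0 with both past the test.

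All 16 tested pan-neuronal genes were lower in the Gfap libraries, with a median of -3.27. Their summed level in Gfap libraries was 15.5% and 9.60% of the neuronal mean, so mRNA of these genes was lower there but not absent. Which cells it came from was not tested. Syt1, the calcium sensor of release, read 70.1 and 28.4 against 574 to 724 (log2 difference -3.82, SE 0.28), and the nuclear protein Rbfox3 35.0 and 18.9 against 144 to 477. Map2, of dendrites, had the smallest difference (log2 difference -1.01, SE 0.18) at 598 and 493 against 827 to 1397. Vesicle release genes were lower for 14 of 17, with Vamp1 at -5.56 and the fusion regulator Cplx1 at 24.8 and 8.21 against 197 to 774. Their 2 higher genes were Snap23 and Vamp3. Postsynaptic genes were lower for 14 of 17. The 3 higher ones were the NMDA receptor subunit Grin2c (515 and 587 against 3.16 to 5.72) and the GABA-A subunits Gabrg1 and Gabrb1 (23.4 and 23.4 against 0.477 to 7.47). Of 15 cytoskeleton genes 6 were higher and 9 lower. The membrane linkers Ezr, Msn and Rdx were higher (Ezr and Rdx by 7.55 and 3.35, Msn at 36.5 and 64.4 against 0 to 0.996), and the neurofilament Nefm and the microtubule proteins Map1b and Tubb3 lower (-3.97, -3.09 and -2.84). Syt1 differed by -4.53 without Gfap replicate 1 and -3.15 without Gfap replicate 2.

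Genes of a single neuronal class depended on the comparator. Of 16 excitatory genes 9 were lower, 1 higher and 6 not called. Against the Camk2a pair alone 15 were lower and none higher, and against the Gad2 pair alone 4 were lower and 8 higher. Tbr1, a cortical excitatory factor, read 92.0 and 48.6 in Gfap, 1482 and 1214 in Camk2a and 42.6 and 37.3 in Gad2 libraries, so the Gfap pair lay far below Camk2a and just above Gad2. Fezf2, a factor of deep-layer neurons, passed as higher (adjusted p = 0.00095), with no count in Gad2 libraries, and its Gfap level of 21.3 ± 13.2 (mean ± SD, n = 2) overlapped the Camk2a values of 18.1 and 18.9. Of 15 inhibitory genes 10 were lower and 1 higher. Against Gad2 alone 14 were lower, and against Camk2a alone 4 were lower and 5 higher. The interneuron peptide Sst read 10.2 and 8.21 in Gfap, 21.9 and 34.9 in Camk2a and 2038 and 1170.3 in Gad2 libraries, and parvalbumin (Pvalb) 5.84 and 3.16, 21.9 and 21.4 and 1187 and 1245.

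Genes known from oligodendrocytes had counts in the Gfap libraries and differed between them. The 18 genes of mature oligodendrocytes took 0.160% (95% interval 0.152% to 0.169%) of counts in Gfap replicate 1 and 1.10% (95% interval 1.09% to 1.12%) in replicate 2 (exact binomial intervals, counting error only). In the neuronal libraries the share was 0.0366% to 0.0666%. Replicate 2 thus held several times the share of replicate 1, and both lay above all 4 neuronal libraries. Myelin basic protein (Mbp) read 606 and 3234 normalised CPM, a ratio of 5.34, with 176 to 226 in neuronal libraries. The myelin lipid-raft protein Mal read 136 and 1474, a ratio of 10.9. The axon-facing glycoprotein Mag read 51.1 and 647 (ratio 12.7), Mobp 13.1 and 233 (ratio 17.7) and the tight junction protein Cldn11 129.9 and 1272 (ratio 9.79). Cnp, an enzyme of non-compact myelin, read 247 and 712 (ratio 2.89), and Cryab, a chaperone that astrocytes also make, 282 and 375 (ratio 1.33).

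The excess of replicate 2 ran through nearly the whole list. Ratios counted over lists and over all genes have 1 normalised CPM added to both levels, so that a level of 0 keeps a ratio. Of the 13 genes tested, 12 were at least 2-fold and 10 at least 4-fold higher in replicate 2 than in replicate 1, with a median ratio of 6.86. Over all tested genes, 5.23% and 1.22% reached these ratios. Astrocyte identity genes had a median ratio of 0.85, and none of the 19 reached 2-fold in either direction. The genes with the largest replicate ratio, chosen by rule among those with at least 20 counts over the Gfap pair, included Mobp, the lipid enzymes Fa2h and Gal3st1, the protease Adamts4 and Nfe2l3. Fa2h, which makes hydroxylated myelin lipids, read 0 and 89.0, and Gal3st1, which makes sulphatide, 0 and 18.3. Neither Fa2h nor Gal3st1 was in a list used here.

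**Figure D4:**
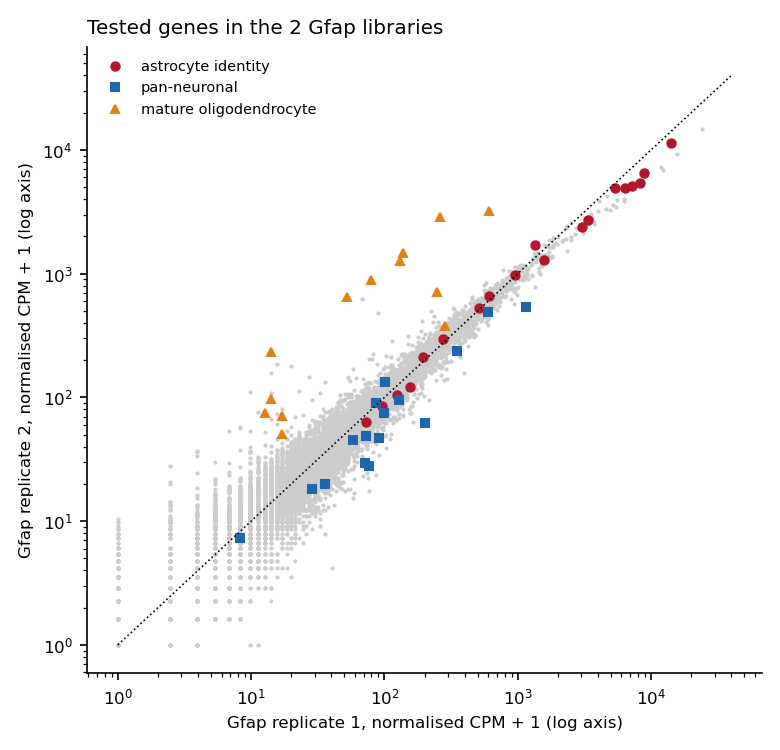
Each tested gene's level in Gfap replicate 1 (horizontal) and replicate 2 (vertical), normalised CPM plus 1 on log axes, with the line of equal levels dotted. Mature oligodendrocyte genes (orange triangles) lie above the line, most pan-neuronal genes (blue squares) below it, and astrocyte genes (red circles) close to it.

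With both libraries in the fit, all 13 tested oligodendrocyte genes were higher than in neurons, with a median of 4.99, but 1 of them, Tspan2, overlapped Gad2 libraries (78.8 and 896 in Gfap and 227 and 199 in Gad2). Without Gfap replicate 2, 11 were tested, 9 were higher and the median was 2.75. Mbp then differed by 1.58 in place of 3.23, still higher, while Mobp (1.63, adjusted p = 0.0624) and Tspan2 (0.44, adjusted p = 0.188) no longer passed. Cnp and Cryab kept 4.15 and 3.50. Without Gfap replicate 1, 17 were tested and higher, with Mbp at 3.92. In these fits the single Gfap library is assumed to vary like the neuronal ones, so they compare that library with the neurons and not the group. With the oligodendrocyte and precursor lists left out of the fit, an alternative added after the data were seen, 3287 genes were higher and 2990 lower. Tspan2 (1.25, adjusted p = 0.0738) did not pass against the Gad2 pair alone.

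Precursor genes followed the same library. Pdgfra, the growth factor receptor of oligodendrocyte precursors, had 3 counts in Gfap replicate 1 and 106 in replicate 2, and Sox10, of the whole lineage, 2 and 52. Both were too low in replicate 1 to be tested. Gpr17 and Bcas1, of cells about to myelinate, read 13.1 and 158 and 19.0 and 180.0 against at most 2.49 and 4.91 in neuronal libraries. Olig1 and Olig2, factors of the lineage of which Olig2 is also known from some astrocytes, read 102 and 214 and 27.7 and 50.5, higher in replicate 2 but clearly present in both, against at most 1.58 and 0.996. Of 6 tested precursor genes 5 were higher, and 8 were higher without Gfap replicate 1 or without any 1 of the neuronal libraries, where more genes passed the filter. Cspg5, a proteoglycan that astrocytes make too, holds most of this list's counts and read 3565 and 2738, so the list's summed level hides the difference between replicates.

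**Figure D5:**
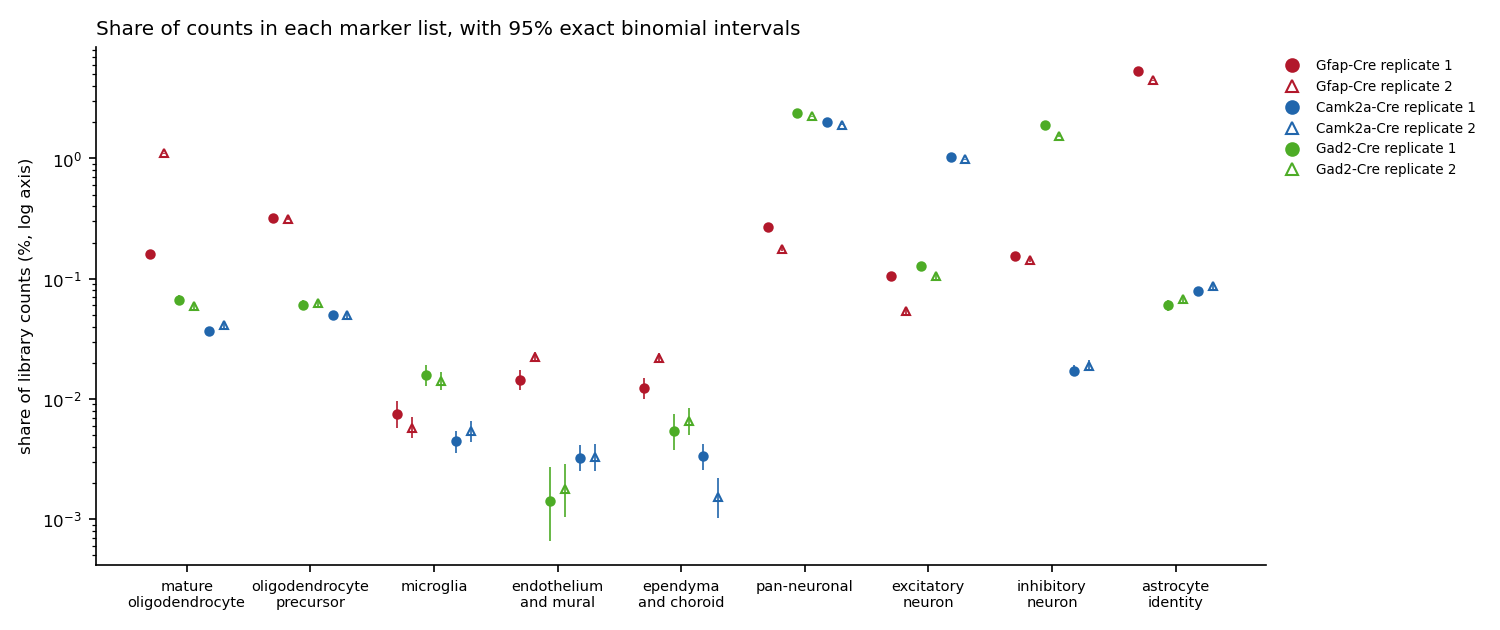
Share of each library's counts in 9 marker lists, in percent on a log axis, with exact 95% binomial intervals. Gfap replicate 2 (open red triangle) is the highest library for mature oligodendrocyte genes, Gfap replicate 1 (red circle) holds more pan-neuronal and excitatory genes than replicate 2, and the astrocyte list is similar in both.

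Neuronal mRNA differed in the opposite direction. Pan-neuronal genes had a median of 12.8% of the neuronal mean in Gfap replicate 1 and 7.76% in replicate 2, and 14 of 16 were lower in replicate 2. Snap25 read 1156 and 539 and Uchl1, a neuronal ubiquitin hydrolase, 201 and 61.3. Excitatory genes had a median ratio of 0.48, replicate 2 over replicate 1, and 9 of 16 were at least 2-fold higher in replicate 1, against 3.77% of all tested genes. Neurod6, a factor of excitatory neurons, read 27.7 and 11.4 and Camk2a 396 and 155. Inhibitory genes did not share this, with a median ratio of 1.06. Their members went both ways, with none at least 2-fold higher in replicate 1 and 5 of 15 at least 2-fold higher in replicate 2, such as the peptide Npy (16.1 and 80.2). By the same rule, the genes with the largest ratio toward replicate 1 were Hpca and Hpcal4, calcium sensors of neurons, Dcaf12l1, Klf12, the ribosomal protein Rpl27, and Ttr, the thyroid hormone carrier of the choroid plexus, at 39.4 and 3.16. The part that carried-over or co-tagged cells play in these differences was not tested. With either Gfap library alone, 16 pan-neuronal genes were lower.

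Genes known from other cell types held small shares of counts, and which cells this mRNA came from was not tested. Microglial genes took 0.00749% and 0.00577% of counts in Gfap libraries, 0.00444% and 0.00540% in Camk2a and 0.0157% and 0.0142% in Gad2 libraries. Of 6 tested genes 4 were lower and 1, P2ry12, was higher (log2 difference 2.50, SE 0.44), and the lower count was 0 by DESeq2, against Camk2a alone and without Camk2a replicate 2, 1 without Gfap replicate 2, and 2 without Gfap replicate 1 or Gad2 replicate 2. Against Gad2 alone 4 were lower and none higher, and against Camk2a alone 2 were higher. Among genes of vessels, Pdgfrb, a receptor known from mural cells, differed by 6.42 (SE 0.27), while the mural marker Rgs5 and the endothelial markers were near 0 in all 6 libraries. Of ependymal genes, Foxj1, the master factor of cilia, read 52.5 and 147 against 9.96 to 42.3, Tmem212 21.9 and 48.0 against 0 to 1.58, and Ccdc153 had no neuronal count and was at least 27.9-fold higher. The choroid plexus gene Ttr did not pass (log2 difference 0.94, SE 0.72, adjusted p = 0.264). Ttr passed without Gfap replicate 2 (adjusted p = 0.00123). P2ry12 (1.06, adjusted p = 0.0669) did not pass against the Gad2 pair alone.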

How the data were processed

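Poly(A)-binding protein tagged with GFP was immunoprecipitated from mouse cortex and the mRNA 3' ends crosslinked to it were sequenced, per the labels' protocols. The authors deposited whole-number read counts per gene symbol, 1 column per library with no header. Cutadapt, Novoalign and the mm10 build are named in the submitters' processing notes, without versions. The sources used here do not state the counting rule, the use of strand or the collapsing of barcoded duplicates, so overlapping and antisense genes and near-identical families are uncertain. Libraries of different driver lines share no name prefix in the deposited files, so a preparation batch cannot be told apart from the line.

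Counts of the 6 libraries were filtered with filterByExpr and TMM-scaled, and tested with edgeR 4.0.16 (quasi-likelihood, R 4.3.3) on 3 group means. The contrast was Gfap minus the mean of Camk2a and Gad2, with Benjamini-Hochberg adjustment over all 9539 genes and a threshold of 0.05. The fit was also run on simulated data with a common spread for all genes and few changed genes. That setting is unlike these data, so the run says nothing of their error rate. Folds against a group without counts use a floor of 3 counts over that group. Library totals ranged from 630475 to 2005627, and shares carry exact 95% binomial intervals, which cover counting error only.

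Alternatives were other scalings, DESeq2 1.42.0, other filters, 8 libraries, a replicate block, thinned counts, either neuronal pair alone and each library left out. Named by rule were the driver genes and Pabpc1, the cell type markers, the 12 largest differences in each direction at an average log2 CPM of at least 3 with groups that do not overlap, up to 6 genes of each list by smallest p, both members of each pair, the 6 largest replicate ratios in each direction at 20 or more counts, and the mature oligodendrocyte list. Other genes named were chosen after their values were seen. The members and lists were chosen with earlier results of these data known. The upstream sequence is from RefSeq (GRCm38.p6), which matched 257 of the 258 genes the rule chose. Some genes chosen by the rule are not reported here. Libraries of other tissues, cells, treatments and assays were not used here.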

Additional observations from a re-analysis of the deposited data

How the results depend on the processing

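Of 3288 genes higher and 2983 lower, every alternative kept both counts within 1.5 times. Leaving out 1 library gave 2565 to 3325 higher and 2396 to 3030 lower genes, with the fewest without Gfap replicate 2, and DESeq2 gave 2786 and 2441. With library totals as the only scaling, 43.5% of called genes were higher in place of 52.4%. Deviations of same-numbered libraries correlated weakly over 6403 genes (0.0791, 0.0127 and 0.0651). Such values cannot tell whether equal numbers mark a shared animal or day. A replicate block gave 3304 higher and 3021 lower. Of 4138 values for 246 named genes, 4015 kept their direction and side of the threshold, 90 fell short of it, 19 newly passed and 14 reversed. Against the Camk2a pair alone the log2 difference was 0.24 for Acan, -0.65 for Ldha, 0.68 for Npy, -0.37 for Pfkl, -0.30 for Srr and 1.76 for Tgfbr2. Against the Gad2 pair alone it was 0.52 for Bdnf, 2.19 for Neurod6, 0.27 for Pfkp, 1.75 for Slc17a7 and 0.74 for Tbr1. These values differ because the neuronal classes differ in level. Without Gfap replicate 2 the value was -0.19 for Slc12a2, 0.14 for Slc17a7 and 2.26 for Ttr, and without Gfap replicate 1 it was 2.66, -1.37 and -1.42, and the cause was not tested. With Mbp and 1 other gene left out of its list, the mature oligodendrocyte share was 0.0863% and 0.549% of counts in Gfap, 0.0352% and 0.0320% in Gad2 and 0.0112% and 0.0118% in Camk2a libraries. Without the list's most abundant gene it was 0.109% and 0.811%, 0.0439% and 0.0404%, and 0.0158% and 0.0166%, so Gfap replicate 2 stayed highest. With 2 libraries per group the spread is estimated from few values, and 133 of 569 list genes had too few counts to be tested.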
